A study of Mus musculus with 24 samples.

Results

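Genes of the actin cytoskeleton, grouped under the heading of astrocyte process motility, were described across the fractions and vigilance states of mouse cerebral cortex. Whether each acts in astrocyte processes was not tested. The group comprised 46 named genes, and a gene was measured if the array annotation held a probe set paired with its symbol alone. Of the 46 genes, 42 were measured, among 18194 genes in all. Arpc1b was found only on probe sets shared with another gene, and Arpc3, Actr2 and Rock2 had no probe set with 1 symbol in the annotation used, so these 4 were not analysed here. A measured gene with several probe sets was represented by the brightest one, taken as the mean of all 24 arrays.

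The mice were adult and heterozygous for aldh1l1 - eGFP-L10a, a ribosomal protein tagged with a fluorescent protein under the control of Aldh1l1, a gene of astrocytes. Tagged ribosomes were precipitated from cortex, which gave the bound fraction with 1 array per animal, and what was not precipitated gave the unbound fraction. There were 6 animals per state, and the unbound fraction was pooled per state from animals 1 to 3 and from animals 4 to 6, so that it had 2 arrays per state. Sleep-deprived mice had been awake for most of the dark phase and were then kept awake for 4 h of the light phase with new objects. Waking mice were killed in the dark phase, between 3 and 5 am, at the end of a bout of wakefulness of more than 1 h, having been awake for 70% or more of the last 6 to 7 h. Sleeping mice were killed in the light phase, between 3 and 5 pm, at the end of a bout of sleep of more than 45 min, having slept for 75% or more of the last 6 to 7 h. The phase of the day therefore differed between waking and both other states. It cannot be told apart from wakefulness in waking against sleep, nor from the deprivation in sleep deprivation against waking. The clock time of killing of sleep-deprived mice was not given in the labels used. All groups carried the transgene, and the pull-down is directed at RNA on ribosomes of cells in which Aldh1l1 is active.

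Astrocytes extend fine processes around synapses and vessels, and these processes are built on actin filaments. Filaments grow from actin monomers delivered by profilins, branch through the Arp2/3 complex under the control of WASP and WAVE proteins, elongate with formins and Ena/VASP proteins, and are cut by cofilins and gelsolin. Ezrin, radixin and moesin tie the filaments to the plasma membrane; ezrin is known from the thin peripheral processes of astrocytes.

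Values were log2 levels after robust multi-array averaging (RMA), and a log2 difference of 1 is a doubling. Aldh1l1 ran from 10.52 to 11.27 on the 18 bound arrays and from 6.75 to 7.23 on the 6 unbound arrays, and all 15 measured astrocyte markers were higher in the bound fraction, while 11 of 12 neuron markers were lower. Exactly tied values occurred in 48 of 48 pairs of arrays of the same group and in 0 of 228 pairs from different groups. Whether RMA was run per group was not stated, and if it was, group and run cannot be told apart. Differences are therefore given relative to the median difference of all genes, which was 0.11 for sleep deprivation against sleep, 0.09 for waking against sleep and 0.02 for sleep deprivation against waking in the bound fraction, 0.18, 0.30 and -0.12 in the same order in the unbound fraction, and 0.16 for bound against unbound. A gene was called higher (rose) or lower (fell) where limma gave an adjusted p under 0.05, and these calls rest on the differences before the medians were taken off.

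The bound arrays fell into the same sets of 3 animals that had been pooled for the unbound fraction. Between animals 4 to 6 and animals 1 to 3, with the states taken into account, 43.8% of all genes and 27 of the 42 actin genes passed the test, 15 higher and 12 lower in animals 4 to 6. Rock1, the kinase downstream of RhoA, averaged 10.71 in animals 4 to 6 and 9.15 in animals 1 to 3, a log2 difference of 1.56 ± 0.08 (SE). Wasl, the neural WASP, was higher by 1.03 ± 0.06. Actn1, the crosslinker alpha-actinin 1, differed by -1.61 ± 0.38, Cdc42ep1 by -1.49 ± 0.16 and Capzb, a subunit of the protein that caps filament ends, by -0.69 ± 0.05. Rock1 and Wasl were thus higher, and the other 3 lower, in animals 4 to 6. Actg1 differed by -0.00 ± 0.05 (adjusted p = 0.961), Synpo by 0.22 ± 0.15 (adjusted p = 0.253) and Cdc42ep4 by 0.15 ± 0.09 (adjusted p = 0.197), and none of these 3 passed. What distinguished the sets was not stated, and results of the states are given below with the set taken into account and within each set.

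**Figure D1:**
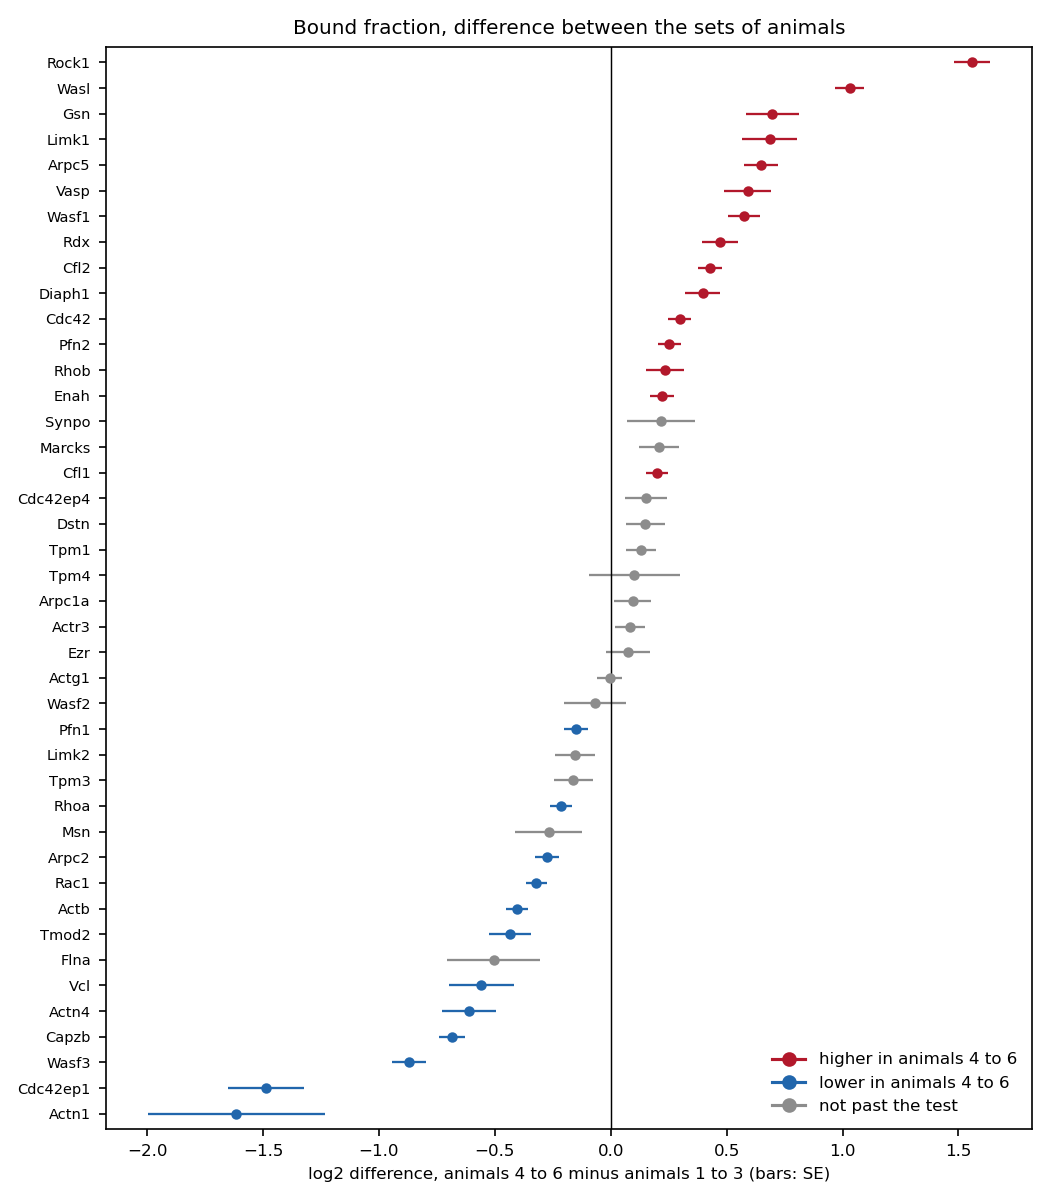
Log2 difference between animals 4 to 6 and animals 1 to 3 in the bound fraction for each of the 42 actin genes, with bars for the SE and colours for the test. Rock1 stands at 1.56 at the top and Actn1 at -1.61 at the bottom, and Actg1 lies at 0.

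Promoters with a match to the CArG box, the core of the serum response element, are shown because actin genes are textbook targets of serum response factor. The window ran from 250 bases before to 50 bases after the start of the gene in RefSeq on GRCm38.p6, and 40 of the 46 genes had one. Actb, Diaph1, Marcks, Rac1, Rock1 and Synpo had none in the table used. The CArG box, CC followed by A or T in the next 6 positions and then GG, was searched on both strands. It was found in 2 of the 40 genes (5%) and in 488 of all 27025 genes with a window (1.81%). The boxes are in capitals below, each sequence on the strand of the gene. In Actg1 the box lay 90 to 81 bases upstream of the start, in chr11:120348446-120348745 on the minus strand, and in Vcl it lay 227 to 218 bases upstream, in chr14:20929148-20929447 on the plus strand.
Actg1: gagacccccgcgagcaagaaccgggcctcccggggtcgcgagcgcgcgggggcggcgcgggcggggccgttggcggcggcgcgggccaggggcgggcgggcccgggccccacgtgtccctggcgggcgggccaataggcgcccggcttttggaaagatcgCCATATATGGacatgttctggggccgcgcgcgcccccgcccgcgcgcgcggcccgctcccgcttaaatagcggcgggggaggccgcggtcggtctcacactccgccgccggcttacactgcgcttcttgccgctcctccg
Vcl: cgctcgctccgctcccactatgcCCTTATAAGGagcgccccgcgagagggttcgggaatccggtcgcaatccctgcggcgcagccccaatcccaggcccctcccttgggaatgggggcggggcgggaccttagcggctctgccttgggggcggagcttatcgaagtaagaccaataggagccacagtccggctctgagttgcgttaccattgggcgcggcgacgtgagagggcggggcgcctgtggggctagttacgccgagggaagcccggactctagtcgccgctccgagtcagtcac
The windows of Cdc42ep4 held no such box. A match describes the letters only.

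Set against the unbound fraction, 21 of the 42 actin genes were higher on the bound arrays and 8 were lower. Of all genes, 69.4% passed this test, 42.2% higher and 27.2% lower, so the 69.0% of actin genes that passed was near the share of all genes and is no result about the group. The median of the 42 genes was 0.23, against 0 for all genes by construction. The 3 highest differences were those of Ezr, Cdc42ep4 and Vcl and the 3 lowest those of Synpo, Wasf1 and Wasl, and members of 1 role could differ in direction. Genes without overlap between fractions or between states were not counted over all genes. A lack of overlap named here therefore describes the single gene only. The log2 difference of the 3′ over the 5′ control of Gapdh, a common measure of RNA integrity, averaged 0.66 to 0.70 in the bound groups and 1.54 to 1.73 in the unbound groups, and its part in the differences between fractions was not tested. The 9 markers of ependyma and choroid plexus averaged 7.37 to 8.16 in the bound groups and 5.96 to 6.68 in the unbound groups. The 8 meningeal and fibroblast markers averaged 7.21 to 7.46 and 6.17 to 6.36, in the same order. Averages of oligodendrocyte (7.93 to 8.19 and 9.69 to 9.91) and microglia markers (5.98 to 6.31 and 6.66 to 7.14) were lower in the bound groups. The part of these cells in the differences between fractions was not tested either.

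Ezr, which encodes ezrin, ran from 10.06 to 10.90 on the bound arrays (median 10.60) and from 6.34 to 7.05 on the unbound arrays (median 6.88). Every bound array lay above every unbound one, and the log2 difference was 3.57 ± 0.11 (SE, adjusted p = 8.2e-18), or 11.9-fold. Its second probe set, of low signal, was also higher. Msn, for moesin, ran from 7.89 to 9.09 on bound arrays (median 8.55) and from 5.45 to 6.82 on unbound arrays (median 6.50), with a difference of 2.00 ± 0.19. Rdx, for radixin, ran from 9.72 to 10.63 (median 10.25) in the bound and from 9.37 to 10.03 (median 9.59) in the unbound fraction, and differed by 0.36 ± 0.13. The Rdx ranges overlapped, with 12 of 18 bound arrays above the highest unbound one. All 3 linkers were thus higher in the bound fraction, ezrin by the most.

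Both Borg genes of the group, which encode effectors of Cdc42 that bind septins, were higher as well. Cdc42ep4 ran from 10.86 to 11.89 (median 11.68) on bound and from 7.80 to 8.42 (median 7.97) on unbound arrays, and the difference was 3.36 ± 0.09 (adjusted p = 3.02e-18), or 10.3-fold. Cdc42ep1 ran from 7.35 to 9.86 (median 8.42) on bound and from 6.08 to 6.79 (median 6.21) on unbound arrays, and differed by 2.09 ± 0.36. Neither gene overlapped between the fractions. Vcl, for the adhesion protein vinculin, ran from 9.11 to 10.55 (median 10.04) on bound and from 5.65 to 6.98 (median 6.66) on unbound arrays, a difference of 3.27 ± 0.18 (adjusted p = 4.47e-13). Both probe sets of Vcl were higher, as were both of Cdc42ep4. Capzb ran from 12.16 to 13.12 (median 12.66) on bound and from 10.69 to 11.42 (median 11.16) on unbound arrays and differed by 1.37 ± 0.16. Its second brightest probe set did not pass (-0.12 ± 0.10, adjusted p = 0.705), while the dimmer ones were higher. Gsn, for gelsolin, did not pass (0.26 ± 0.19, adjusted p = 0.0574), and its 6 probe sets were called in both directions.

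RhoA governs contractile bundles, Rac1 broad protrusions and Cdc42 fine ones. Rhoa ran from 12.11 to 12.59 (median 12.38) on bound and from 10.80 to 11.14 (median 10.87) on unbound arrays, a difference of 1.30 ± 0.07, although a dim probe set of Rhoa was lower. Rac1 was higher at 0.76 ± 0.09. Rhob was higher at 0.29 ± 0.10, but at 0.09 with repeated quantile normalization the call was lost (adjusted p = 0.0789). For Cdc42 the difference was 0.08 ± 0.09 (adjusted p = 0.018), inside 1 SE of the median gene, its direction changed when quantile normalization was repeated (-0.13), and its probe sets were called both ways. Of the group's measured kinases, Rock1 and Limk2 did not pass on the probe sets that represented them. The dimmer probe sets of Rock1 were called higher, by 0.73 to 1.18, except the dimmest, which did not pass. For Limk2 a dimmer probe set was called higher (adjusted p = 0.0467 by limma), and the dimmest did not pass. Limk1, which phosphorylates cofilin, was lower at -0.68 ± 0.19 (median 9.74 on bound and 10.29 on unbound arrays, with 12 of 18 bound arrays below the lowest unbound one). By the mean of its probe sets, however, Limk1 was higher (0.23).

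The branching genes of the group divided. Of the group's 4 measured Arp2/3 subunits 3 were lower in the bound fraction: Arpc5 (-1.35 ± 0.16), Arpc1a (-0.88 ± 0.08) and Actr3 (-0.80 ± 0.07). Arpc5 ran from 9.10 to 10.25 (median 9.64) on bound and from 10.27 to 11.12 (median 10.95) on unbound arrays, and Arpc1a from 9.63 to 10.15 (median 9.91) and from 10.38 to 10.91 (median 10.63) on the same arrays. Actr3 ran from 10.43 to 10.81 (median 10.66) on bound and from 11.03 to 11.46 (median 11.32) on unbound arrays. For these 3 subunits every bound array lay below every unbound one. Arpc2 was called higher, at 0.11 ± 0.08 (adjusted p = 0.00685), and that call was lost when arrays were centred (adjusted p = 0.0832). The WASP and WAVE proteins activate this complex. Wasf1 was at 10.07 to 10.98 (median 10.73) on bound and at 12.15 to 12.57 (median 12.43) on unbound arrays, a difference of -1.90 ± 0.14, and Wasl at 9.50 to 11.01 (median 10.28) and at 11.28 to 11.99 (median 11.81), a difference of -1.68 ± 0.24. Wasf2 and Wasf3 went the other way: Wasf2 was at 7.81 to 8.92 (median 8.33) on bound and at 6.42 to 7.29 (median 6.91) on unbound arrays (1.23 ± 0.15), and Wasf3 differed by 0.86 ± 0.21. None of these 4 genes overlapped between fractions, and of the 4 probe sets of Wasl 2 were lower in the bound fraction, 1 was higher and 1 did not pass.

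Filament-binding genes also differed in direction. Synpo encodes synaptopodin, a protein of dendritic spines and of kidney podocytes. It ran from 6.44 to 8.26 (median 7.68) on bound and from 9.50 to 10.53 (median 10.03) on unbound arrays. Every bound array thus lay below every unbound one, and the difference was -2.66 ± 0.15 (adjusted p = 2.05e-12). Its second, dimmer probe set did not pass (-0.65 ± 0.37, adjusted p = 0.181). Tpm1, a tropomyosin that lines filaments, was lower (11.96 to 12.46, median 12.34, on bound; 13.08 to 13.40, median 13.26, on unbound arrays; -1.08 ± 0.07), and Tpm4 was higher (7.33 to 8.88, median 7.97, on bound; 6.19 to 7.19, median 6.56, on unbound arrays; 1.19 ± 0.18). Vasp, an elongation factor, was at 7.67 to 9.24 (median 8.70) on bound and at 6.83 to 7.90 (median 7.36) on unbound arrays (1.01 ± 0.17). Other genes higher in the bound fraction were Flna (0.86), Pfn1 (0.78), Actb (0.34), Dstn (0.25) and Enah (0.20). The Actb value comes from a control probe set of the array, and with the control probe sets left out it was 0.04 ± 0.05, within 1 SE of the median gene, though still called higher before the median was taken off. Flna is filamin A, the crosslinker of crossing filaments, and Pfn1 is profilin 1. Among 32 genes with several probe sets, all probe sets were called higher for 8 genes and lower for 1, and both directions occurred for 7: Cdc42, Enah, Gsn, Limk1, Rhoa, Tpm3 and Wasl.

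**Figure D2:**
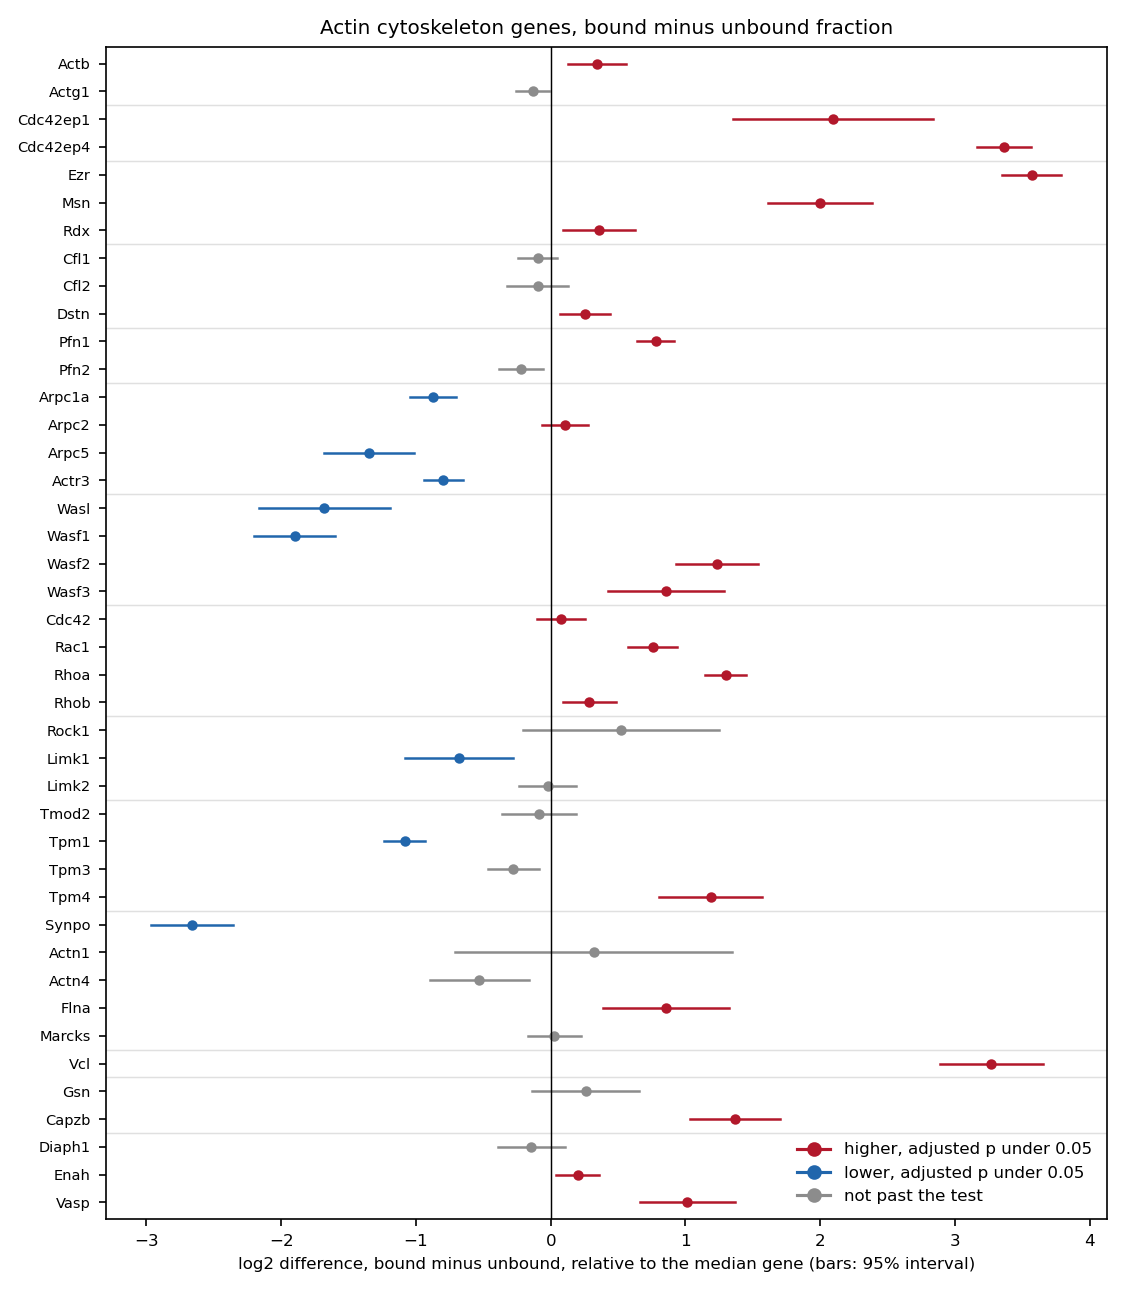
Log2 difference of bound over unbound for the 42 actin genes by role, relative to the median gene, with 95% intervals. Ezr (3.57), Cdc42ep4 (3.36) and Vcl (3.27) lie farthest to the right and Synpo (-2.66) farthest to the left; Actg1 did not pass.

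Within the bound fraction few actin genes differed between the states. Sleep deprivation against sleep called 1 higher and 2 lower of 42, whereas 14.3% of all genes passed, 12.2% higher and 2.01% lower. Waking against sleep called 1 higher and 1 lower, whereas 11.2% of all genes passed, 9.07% higher and 2.13% lower. The actin genes that passed in either direction made up 7.14% and 4.76% of the group, below the 14.3% and 11.2% of all genes. The lower ones, 2 genes and 1 gene, made up 4.76% and 2.38%, against 2.01% and 2.13% of all genes. The group's median difference was -0.07 after sleep deprivation and -0.06 in waking, and 13 and 15 of 42 genes lay above the median gene. Both comparisons use the same 6 sleep arrays, so they are not independent.

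The lower genes included Actg1, for cytoplasmic gamma-actin. Its 6 bound arrays ran from 12.29 to 12.45 (median 12.32) after sleep deprivation, from 12.31 to 12.64 (median 12.47) in waking and from 12.81 to 12.90 (median 12.87) in sleep. All arrays of sleep deprivation and of waking lay below all sleep arrays. The log2 difference was -0.63 ± 0.08 after sleep deprivation (SE, adjusted p = 0.000182; 1.55-fold lower) and -0.47 ± 0.08 in waking (adjusted p = 0.00269; 1.39-fold lower). Within animals 1 to 3 the differences were -0.61 ± 0.10 (adjusted p = 0.0186) after sleep deprivation and -0.42 ± 0.10 (adjusted p = 0.0851) in waking. Within animals 4 to 6 they were -0.65 ± 0.12 (adjusted p = 0.0445) and -0.53 ± 0.12 (adjusted p = 0.0936), in the same order. In bulk samples fewer cells of a type and less RNA per cell cannot be told apart. The only probe set of Actg1 belongs to a class whose probes may match more than one transcript, and the actin genes are close in sequence.

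**Figure D3:**
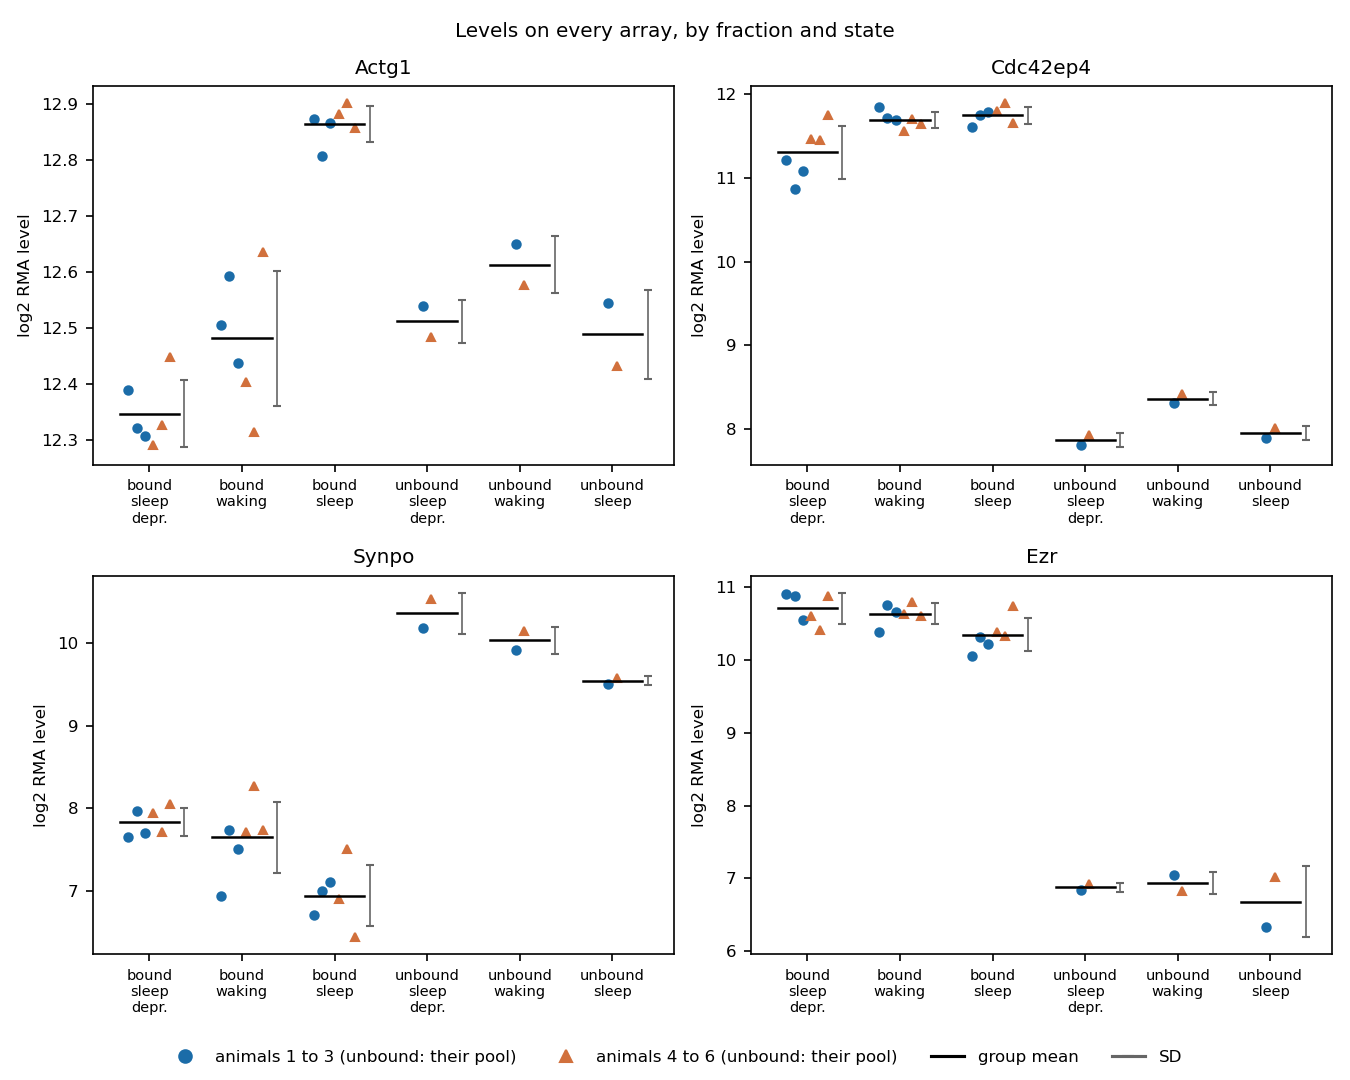
Log2 level of Actg1, Cdc42ep4, Synpo and Ezr on every array by fraction and state, with group means, SD and the set of animals. For Actg1 the bound arrays of sleep deprivation and of waking lie below all sleep arrays, and 5 of 6 Cdc42ep4 arrays of sleep deprivation lie below the sleep arrays.

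Actb, for cytoplasmic beta-actin, is represented by 5 probe sets, 3 of which are the 5′, middle and 3′ controls of the array. The probe set with the highest mean was the 5′ control, at 13.18 to 13.75 (median 13.43) after sleep deprivation, 13.25 to 13.74 (median 13.48) in waking and 13.39 to 13.82 (median 13.59) in sleep. The groups overlapped, and the differences of -0.26 ± 0.14 (adjusted p = 0.562) and -0.21 ± 0.14 (adjusted p = 0.707) did not pass. The brighter of the other 2 probe sets was at 13.19 to 13.39 (median 13.31) after sleep deprivation, 13.29 to 13.41 (median 13.38) in waking and 13.54 to 13.63 (median 13.59) in sleep, with no overlap between sleep and either other state. With the control probe sets left out, Actb was called lower after sleep deprivation (-0.39 ± 0.07, adjusted p = 0.00919) and in waking (-0.31 ± 0.07, adjusted p = 0.046). The differences of all 5 probe sets were below 0 in both comparisons. The 3 controls and the remaining probe set were lower in animals 4 to 6 than in animals 1 to 3 on every array of a state, for example at 13.12 to 13.24 against 13.61 to 13.65 for the 3′ control in sleep. The log2 difference of the 3′ over the 5′ control of Actb averaged -0.29 ± 0.05 after sleep deprivation, -0.30 ± 0.09 in waking and -0.19 ± 0.10 in sleep (SD, n = 6 each). That of Gapdh averaged 0.69 ± 0.35 after sleep deprivation, 0.70 ± 0.35 in waking and 0.66 ± 0.36 in sleep. The part of RNA integrity in the Actb result was not tested.

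**Figure D4:**
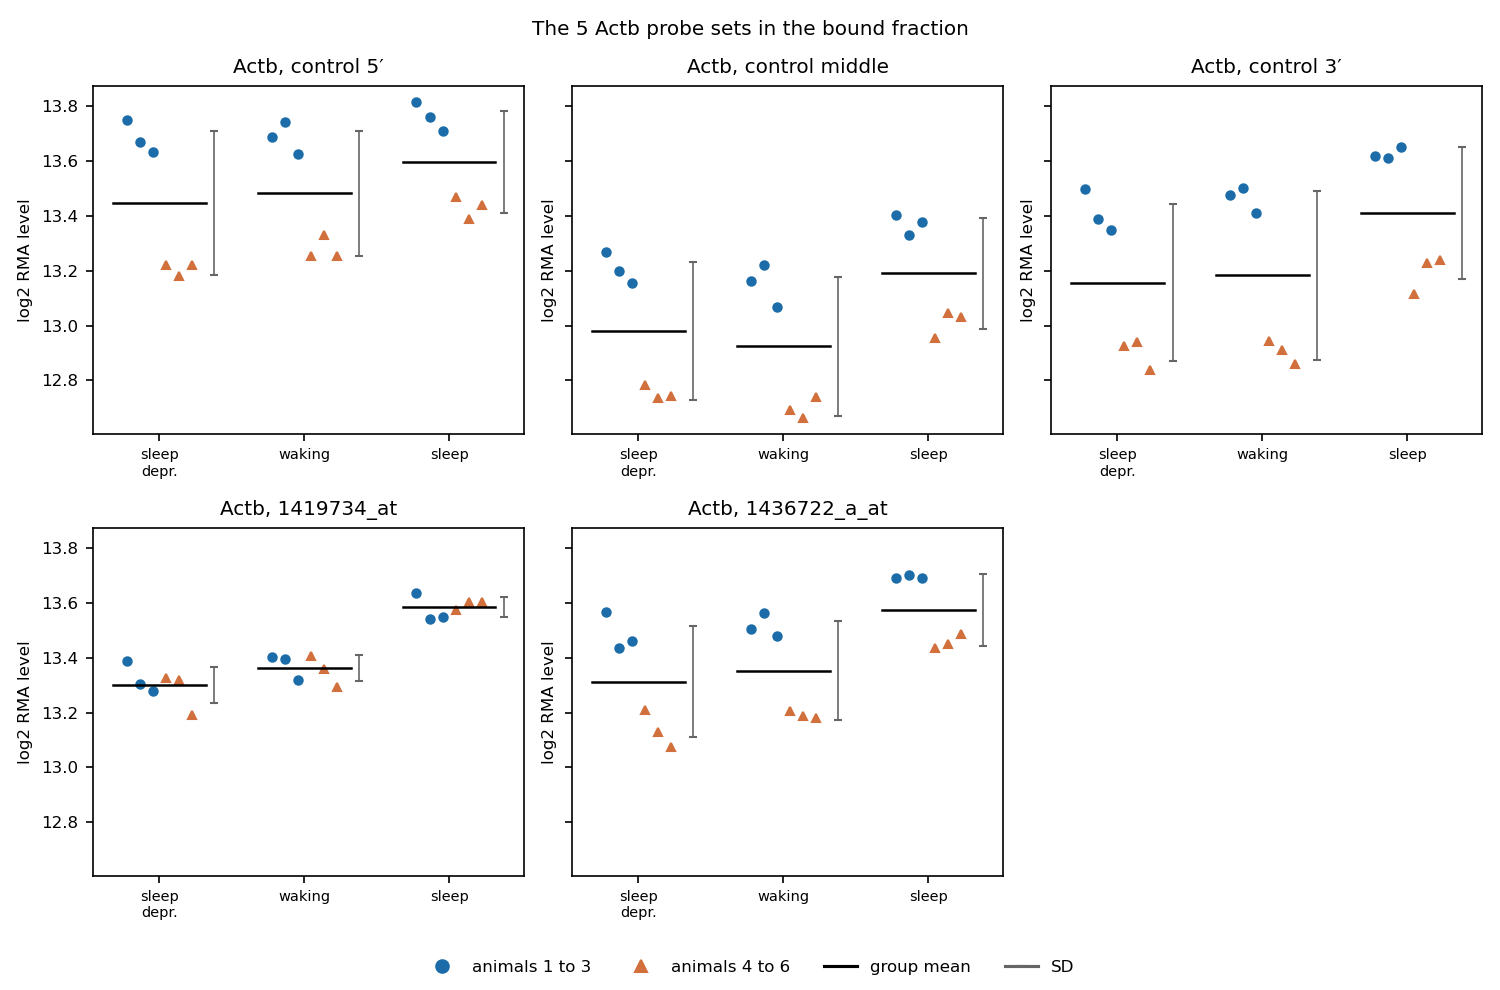
Log2 level of the 5 Actb probe sets on the bound arrays by state, with the set of animals as symbol, group means and SD. In 4 probe sets animals 4 to 6 lie below animals 1 to 3 within each state, and in 1 of the 2 probe sets that are not controls all 12 arrays of sleep deprivation and waking lie below the 6 sleep arrays.

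Cdc42ep4 was the other gene lower after sleep deprivation. Its arrays ran from 10.86 to 11.75 (median 11.33) after sleep deprivation, from 11.56 to 11.85 (median 11.70) in waking and from 11.61 to 11.89 (median 11.77) in sleep. Of the 6 arrays of sleep deprivation 5 lay below the lowest sleep array, and waking overlapped with sleep. The difference was -0.56 ± 0.12 after sleep deprivation (adjusted p = 0.0205; 1.47-fold lower) and -0.15 ± 0.12 in waking (adjusted p = 0.868). Within animals 1 to 3 the first difference was -0.77 ± 0.12 (adjusted p = 0.0166) and within animals 4 to 6 it was -0.36 ± 0.13 (adjusted p = 0.334). Both probe sets of Cdc42ep4 were called lower after sleep deprivation, but the call was lost with dim genes left out.

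Synpo was the gene that was higher in both states. It ran from 7.65 to 8.05 (median 7.82) after sleep deprivation, from 6.94 to 8.26 (median 7.72) in waking and from 6.44 to 7.51 (median 6.95) in sleep. Sleep deprivation did not overlap with sleep, and 4 of 6 waking arrays lay above the highest sleep array. The difference was 0.78 ± 0.19 (adjusted p = 0.00365; 1.72-fold) after sleep deprivation and 0.61 ± 0.19 (adjusted p = 0.0218; 1.53-fold) in waking. Within animals 1 to 3 these were 0.73 ± 0.21 (adjusted p = 0.0443) and 0.37 ± 0.21 (adjusted p = 0.245), and within animals 4 to 6 they were 0.82 ± 0.27 (adjusted p = 0.075) and 0.85 ± 0.27 (adjusted p = 0.0898). The second Synpo probe set did not pass (0.10 ± 0.47 and -0.13 ± 0.47), and by the mean of the probe sets neither call held (adjusted p = 0.187 and 0.498). The waking call was also lost with dim genes left out, repeated quantile normalization or centring, and without sleep replicate 6 (0.51, adjusted p = 0.0534) or without waking replicate 5 (0.49, adjusted p = 0.0502). Synpo is low in the bound fraction, and 12 measured neuron markers averaged 9.82 to 10.25 per array after sleep deprivation, 9.73 to 10.30 in waking and 9.84 to 10.36 in sleep. Of these 12 markers limma called 0 in waking, with 0 at an unadjusted p under 0.05, and 1, Stmn2, lower after sleep deprivation. Of all 18194 genes 4210 had an unadjusted p under 0.05 in waking.

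Markers of other cell types were read on the same arrays. The 9 markers of ependyma and choroid plexus averaged 6.07 to 8.74 per array after sleep deprivation, 6.02 to 8.96 in waking and 6.94 to 9.01 in sleep, with list medians of -0.92 and -0.80 against sleep, although limma called 0 of 9 in either, with 1 at an unadjusted p under 0.05 in each. Of all 18194 genes 4795 after sleep deprivation and 4210 in waking had an unadjusted p under 0.05. Both measured red blood cell markers rose after sleep deprivation, and their mean level was 4.17 to 4.63 after sleep deprivation, 3.86 to 4.33 in waking and 3.42 to 3.83 in sleep. The 9 microglia markers averaged 5.55 to 6.44 after sleep deprivation, 6.10 to 6.50 in waking and 5.73 to 6.20 in sleep, and 1 rose after sleep deprivation and 2 in waking. The 9 endothelial markers averaged 4.39 to 4.99 after sleep deprivation, 4.63 to 4.98 in waking and 4.31 to 4.68 in sleep, and 1, Cldn5, rose in waking. The 8 meningeal and fibroblast markers averaged 6.69 to 7.77 after sleep deprivation, 6.92 to 7.71 in waking and 7.19 to 7.90 in sleep. Of 9 oligodendrocyte markers 2 rose in waking, and of 9 markers of pericytes and smooth muscle 1 rose and 1 fell in each state. The part of these cells in the results of Actg1, Cdc42ep4 and Synpo was not tested.

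The other actin genes did not pass on the probe set that represented them. Among the 3 linkers, 3 cofilins and 2 profilins, Ezr was at 10.41 to 10.90 (median 10.74) after sleep deprivation, 10.38 to 10.80 (median 10.64) in waking and 10.06 to 10.74 (median 10.32) in sleep, and differed by 0.25 ± 0.12 (adjusted p = 0.0555) and 0.20 ± 0.12 (adjusted p = 0.146). Cfl1, for the cofilin of non-muscle cells, differed by -0.20 ± 0.09 and -0.17 ± 0.09, and Pfn1 by -0.19 ± 0.08 and -0.17 ± 0.08. The group's 4 measured Arp2/3 subunits lay between -0.14 and -0.07 after sleep deprivation and between -0.27 and 0.00 in waking. Marcks, a membrane-bound protein that binds actin, differed by -0.38 ± 0.13 (adjusted p = 0.178) after sleep deprivation, and 1 of its 7 probe sets passed, lower. For Tpm3 the brightest probe set did not pass, but dimmer ones were called higher after sleep deprivation (0.36, 0.30 and 0.31) and in waking (0.29 and 0.40). Another Tpm3 probe set, at -0.24 and -0.30 in the same order, did not pass. Of 32 actin genes with several probe sets, 10 had some but not all called, in 1 direction, after sleep deprivation, and 9 in waking.

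**Figure D5:**
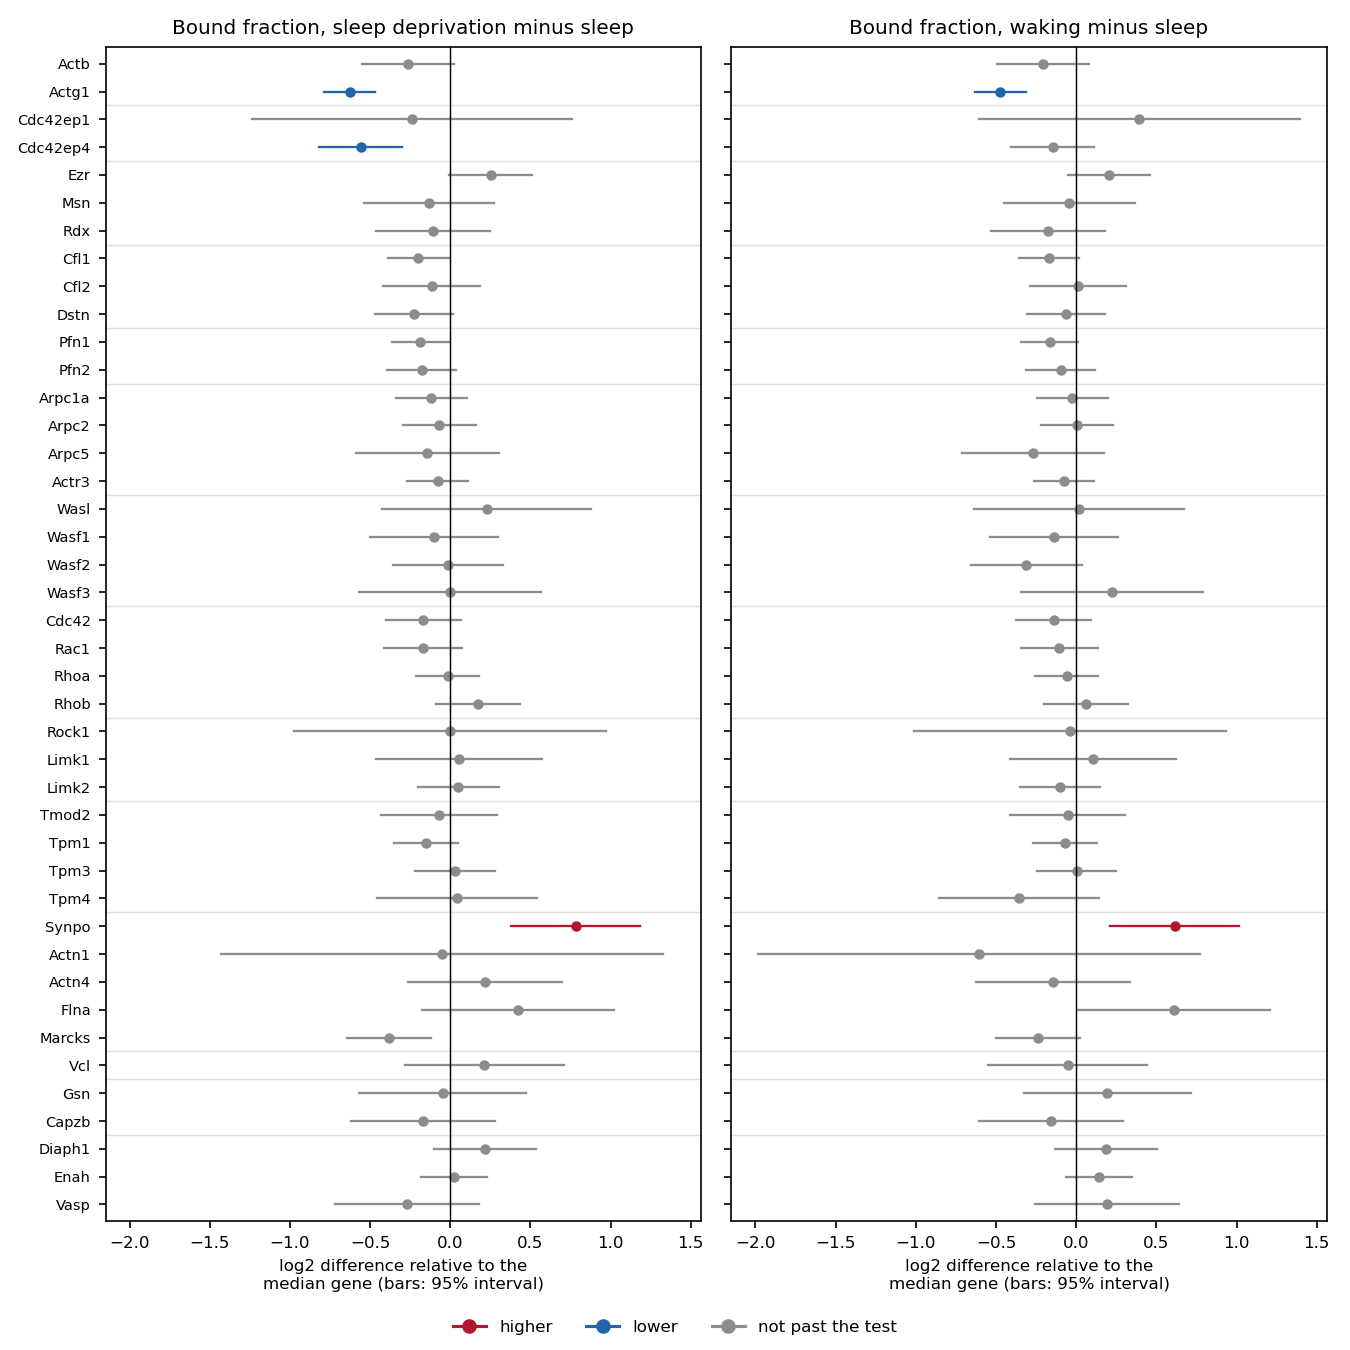
Log2 differences of sleep deprivation (left) and waking (right) over sleep in the bound fraction for the 42 actin genes by role, relative to the median gene, with 95% intervals. Actg1 is lower in both panels, Cdc42ep4 lower on the left and Synpo higher in both; the other 39 genes on the left did not pass.

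Same-numbered bound animals of different states deviated together, but some pairs with other numbers did so as much, and the correlation fell once the set of 3 animals had been removed. With the number as a block more genes passed, among the actin genes and among all genes. After sleep deprivation 7 actin genes (16.7%) passed instead of 3, against 21.3% of all genes (17.7% higher and 3.59% lower), with Ezr (0.25, adjusted p = 0.0424), Wasl (0.23, adjusted p = 0.011), Actn4 (0.22, adjusted p = 0.0471) and Diaph1 (0.22, adjusted p = 0.0312) added, all higher. In waking 4 (9.52%) passed instead of 2, against 16.8% of all genes (13.2% higher and 3.64% lower), with Wasf3 (0.22, adjusted p = 0.0276) and Enah (0.15, adjusted p = 0.0316) added, both higher. Diaph1 is a formin and Enah an Ena/VASP protein. After sleep deprivation Ezr differed by 0.48 ± 0.15 within animals 1 to 3 and by 0.02 ± 0.17 within animals 4 to 6. In the same order Wasl differed by 0.24 ± 0.12 and 0.20 ± 0.13, and Diaph1 by 0.11 ± 0.13 and 0.31 ± 0.15. Without a block, the second Ezr probe set, of low signal, was at -0.15 ± 0.11 and did not pass. With the set of 3 animals as the block, 6 actin genes (14.3%) passed after sleep deprivation and 5 (11.9%) in waking, against 22.5% and 18.6% of all genes. With that block and arrays centred on their median, an alternative added after the data had been seen, 11 actin genes (26.2%) passed after sleep deprivation, 1 higher and 10 lower, against 19.0% of all genes, 9.40% higher and 9.57% lower. In waking 7 (16.7%) passed, 1 higher and 6 lower, against 16.7% of all genes, 7.24% higher and 9.46% lower. Besides Actg1 and Synpo, these were Actb, Cfl1, Pfn1 and Capzb in both comparisons, Arpc5 in waking, and Cdc42ep4, Pfn2, Cdc42, Rac1 and Marcks after sleep deprivation. The additional genes differed by 0.15 to 0.38 on the log2 scale in size, and whether higher or lower ones were called depended on the centring.

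Sleep deprivation against waking in the bound fraction called 0 of 42 actin genes by limma, with 1 at an unadjusted p under 0.05, whereas 6.84% of all genes passed, 4.17% higher and 2.67% lower. Of all 18194 genes 3411 had an unadjusted p under 0.05. Cdc42ep4 had the only difference among the 42 with an unadjusted p under 0.05, at -0.41 ± 0.12 (adjusted p = 0.0675). With the replicate number as a block, Vasp (-0.46, adjusted p = 0.0386) and Actn4 (0.36, adjusted p = 0.0394) passed, and with the set of animals as a block Vasp (adjusted p = 0.0312) and Cdc42ep4 (adjusted p = 0.0307) passed, both lower. Of all genes 10.5% passed with the number and 11.9% with the set as the block. For Vasp the difference was -0.79 ± 0.13 within animals 1 to 3 and -0.14 ± 0.16 within animals 4 to 6.

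In the unbound fraction, with 2 pools per state, waking against sleep called 1 of 42 genes higher and 0 lower, whereas 6.32% of all genes passed, 5.72% higher and 0.605% lower. It was Tmod2, for a tropomodulin of neurons that caps the slow-growing filament ends: its pools were at 10.93 and 11.00 in waking and at 10.10 and 10.09 in sleep. The difference was 0.57 ± 0.16 (adjusted p = 0.0411), and the call was lost with the replicate number as a block (adjusted p = 0.0676) and without any single unbound array (adjusted p from 0.0692 to 0.155). Of the 6 probe sets of Tmod2 only this one passed, and by their mean the difference was 0.29 ± 0.14 (adjusted p = 0.0461). The pools of sleep deprivation, at 11.01 and 10.79, were near those of waking, but the difference from sleep did not pass (0.63 ± 0.16, adjusted p = 0.0618). Sleep deprivation called 0 of 42 genes by limma against sleep and 0 against waking, with 7 and 5 at an unadjusted p under 0.05, whereas 1.87% of all genes passed against sleep, 1.42% higher and 0.451% lower, and 0.758% against waking, 0.242% higher and 0.517% lower. The 7 and 5 were smaller shares than those of all 18194 genes, of which 4613 and 3822 had an unadjusted p under 0.05.

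The state differences of Actg1 were also compared between the fractions. Its unbound pools were at 12.54 and 12.48 after sleep deprivation, 12.65 and 12.58 in waking and 12.55 and 12.43 in sleep. The change after sleep deprivation differed between the bound and the unbound fraction by -0.47 ± 0.15 (adjusted p = 0.0327), and that in waking by -0.29 ± 0.15 (adjusted p = 0.0428). Actg1 was the 1 of 42 genes called in each of these comparisons, where 4.89% of all genes passed for sleep deprivation, 2.91% higher and 1.98% lower, and 5.6% for waking, 1.89% higher and 3.71% lower. Both calls were lost when arrays were centred on their median and without either unbound sleep pool. Over all alternatives the call for waking was lost in 19 of 32, in 9 of them on leaving out 1 bound array of waking or sleep, and that for sleep deprivation in 7 of 32.

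Other genes of the actin pathway were counted from lists, 132 of 140 of them measured. Against sleep, 9 rose and 1 fell after sleep deprivation (7.58% of the 132, where 14.3% of all genes passed) and 2 rose in waking (1.52%, where 11.2% passed). Neither share exceeded that of all genes. Those with the largest differences after sleep deprivation were Wipf3, which binds WASP proteins (0.89 ± 0.22), Fscn1, the bundling protein fascin (0.83 ± 0.19), Cd44, a membrane receptor that binds ezrin (0.78 ± 0.20), Rhou (0.70 ± 0.15) and Flnc, a filamin (0.62 ± 0.14). Capza2, a capping subunit, was lower (-0.42 ± 0.09). In waking Wipf3 (0.65 ± 0.22) and Flnc (0.44 ± 0.14) were higher. Against waking, 7 rose and 1 fell after sleep deprivation (6.06%, where 6.84% of all genes passed), with Fscn1 (1.16 ± 0.19), Myh9, a non-muscle myosin (0.86 ± 0.19), Rhou (0.73 ± 0.15), Rhoj (0.72 ± 0.14) and Mrtfb, a cofactor of serum response factor (0.65 ± 0.11) as the largest and Rnd3 lower (-0.61 ± 0.15). Against the unbound fraction, 53 of these 132 genes were higher on the bound arrays (40.2%) and 54 lower (40.9%), where 42.2% and 27.2% of all genes were. Pdpn (3.69 ± 0.12), Slc9a3r1 (3.39 ± 0.12) and Rhoc (3.36 ± 0.12) were the highest and Wipf3 (-3.21 ± 0.17), Tiam1 (-3.14 ± 0.28) and Coro1a (-3.03 ± 0.16) the lowest. Slc9a3r1 encodes a scaffold that binds ezrin.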

How the data were processed

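RNA of the bound and unbound fractions of mouse cortex was hybridized by the authors to Affymetrix Mouse Genome 430 2.0 arrays, 18 bound and 6 unbound. The deposited values are log2 levels of 45101 probe sets after RMA, per the submitters' processing notes, whose version the sources used here do not give. No depth exists for arrays, and their number limits the precision.

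From these values 1 probe set was taken per gene, that with the highest mean over the 24 arrays among the 34958 probe sets paired with exactly 1 symbol (932 had several symbols and 9211 none; 34754 matched RefSeq by Entrez ID), array control probe sets included. Linear models were fitted over all 18194 genes in limma 3.58.1 (R 4.3.3; lmFit, eBayes, Benjamini-Hochberg), with the 18 bound or the 6 unbound arrays for state comparisons and all 24 arrays in 6 groups for comparisons of fractions. The fit of fractions gave single animals and pools of 3 the same spread. It also treated the arrays as independent, although the pools held the same animals as the bound arrays. In its replicate block alternative a pool and its animals shared a block. Every ± without another label is the standard error of the fit. The fit was tested on simulated data with 200 changed genes. The simulated arrays were independent and held no difference between the sets of animals, so this does not show how the fit behaves with such a difference. Same-numbered animals of different states had residual correlations of 0.268 to 0.53 in 18 bound pairs. The number was used as a block in an alternative and not in the main fits. Pairs with other numbers lay at -0.504 to 0.532, and those with the same number fell to -0.109 to 0.181 once the set of 3 animals had been removed. The correlations thus did not show pairing by number beyond the set. The 6 unbound pairs lay at 0.00118 to 0.0288.

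The alternatives comprised the replicate number or set of animals as a block, dim genes left out, the mean of the probe sets, control probe sets left out, repeated quantile normalization, centring, an intensity trend, array weights, a shared spread, each set of animals alone, and each array left out. All actin genes could be named; among other pathway genes, those past the test in a bound state comparison (up to 5 per direction) and the 3 largest per direction between the fractions. Members and lists were chosen with earlier results of these data known. Promoter windows came from RefSeq. Plots used matplotlib 3.10.9 and numpy 2.4.6.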

Additional observations from a re-analysis of the deposited data

Results flagged for a closer look

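Among 126 groups of 6 bound arrays (42 genes in 3 states), 4 held an array far from the others by Dixon's test, while chance alone gives about 1 in 20. Arpc1a was at 10.15 in sleep deprivation replicate 5, above the other 5 arrays at 9.76 to 9.89. Tpm1 was at 11.96 in sleep deprivation replicate 1, below the others at 12.28 to 12.40, and at 12.07 in sleep replicate 1, below the others at 12.33 to 12.46. Vasp was at 9.24 in waking replicate 5, above the others at 8.54 to 8.77. The difference of Actg1 between states was more negative in the bound than in the unbound fraction, by -0.47 for sleep deprivation and by -0.29 for waking against sleep, by the test of that difference. No cause was tested.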

How the results depend on the processing

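Actg1 kept its call after sleep deprivation in 32 of 32 alternatives and in waking in 30 of 32, Cdc42ep4 after sleep deprivation in 30 of 32, and Synpo in 30 of 32 after sleep deprivation and 24 of 32 in waking; no direction changed among these. Shares of all genes in the bound fraction moved with the processing too. Sleep deprivation against sleep called 14.3% in the main fit, 21.3% with the replicate block and 22.5% with the set as a block. In waking these were 11.2%, 16.8% and 18.6%, and for sleep deprivation against waking 6.84%, 10.5% and 11.9%. Counts of actin genes below stand without such shares, so they describe the processing and are no result about the group. The number of actin genes called for bound sleep deprivation against sleep, 3, became 7 with the replicate block, 7 with the mean of the probe sets, 6 with the set of animals as a block and 1 in animals 4 to 6 only. For bound waking against sleep, 2 became 4 with the replicate block, 5 with the set of animals as a block, 1 with dim genes left out, with repeated quantile normalization and with centring, 0 in animals 1 to 3 only and 0 in animals 4 to 6 only, and 1 to 2 with an array left out. The waking calls of Actg1 and Synpo were both lost within each set of 3 animals. For bound sleep deprivation against waking, 0 became 2 with the replicate block, with the set of animals as a block and in animals 1 to 3 only, 1 with the mean of the probe sets, an intensity trend, array weights or a spread shared by 24 arrays, and 0 to 1 with an array left out (1 without sleep deprivation replicate 6). In alternatives chosen after seeing the data, the set of animals as a block gave 11 and 7 and 2 calls for these comparisons in the same order when arrays were centred, and 7 and 6 and 2 with control probe sets left out. For unbound waking against sleep, 1 became 0 with the replicate block, with dim genes left out, quantile normalization, centring, the shared spread and any array left out, 2 with the mean of the probe sets and 10 with an intensity trend; for unbound sleep deprivation against sleep, 0 became 6 with an intensity trend. The single call for the difference between fractions became 0 with dim genes left out, quantile normalization and centring, and 2 with the mean of the probe sets, for waking and for sleep deprivation alike, 2 for waking with array weights, and 0 to 1 with an array left out. The 29 calls between fractions stayed within 1.5 times under every alternative run, but Limk1 reversed with the mean of the probe sets (0.23) and Cdc42 with repeated quantile normalization (-0.13). The causes were not tested.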
